A study of Homo sapiens with 12 samples.

Results

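The nuclear-encoded subunits of oxidative phosphorylation were followed across 4 groups of T24 cells by poly(A) RNA-seq. Members were taken by symbol: protein-coding genes starting with NDUFA (without the NDUFAF assembly factors), NDUFB, NDUFC, NDUFS, NDUFV, UQCR, COX4I, COX5, COX6, COX7, COX8 or ATP5, and SDHA, SDHB, SDHC, SDHD and CYC1. The rule uses no measured value. It found 91 of the 60603 genes in the table: 38 of complex I, 4 of complex II, 10 of complex III, 17 of complex IV, 20 of complex V, and NDUFA4 with its paralogue NDUFA4L2, which are given apart because NDUFA4 is named for complex I but is held to be a subunit of complex IV. Of these, 84 had enough counts to be tested, among 17775 genes tested in all.

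T24 cells are an established human line of bladder carcinoma origin. The series concerns AlissAID, a system for degrading proteins on demand, and its inducer here is 5-Ad-IAA, a derivative of the plant hormone auxin. The 4 groups, of 3 libraries each, were WT cells without treatment, WT cells with 5-Ad-IAA, NS1 cells without treatment and NS1 cells with 5-Ad-IAA. The labels do not spell out NS1 or say whether the NS1 cells are 1 clone. They also do not say that replicates came from separate cultures, so the p-values measure the spread between these libraries, which may be technical. Library totals ran from 10593934 to 20266996 counts. The epithelial keratins KRT7, KRT8, KRT18 and KRT19 had 3065, 1992, 1025 and 329 CPM (normalised counts relative to a library total scaled by TMM) over the 12 libraries, and GATA3, FOXA1 and PPARG had 43.0, 36.3 and 67.5. EPCAM had 2.09 CPM and CDH1 0.0346, KRT5 and UPK3A had no count, and the mesenchymal genes VIM, CDH2 and FN1 had 48.2, 124 and 4953 CPM.

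Complexes I to IV carry electrons from NADH and succinate to oxygen in the mitochondrial inner membrane, and complexes I, III and IV pump protons as they do so. Complex V, the ATP synthase, uses the returning protons to make ATP. Most subunits are encoded in the nucleus and imported, while a small set of core subunits is encoded in mitochondrial DNA, so building a complex needs transcripts from both genomes. The nuclear genes have promoters on which NRF1 and the ETS factor GABP are known to act.

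Upstream sequence from RefSeq (GRCh38.p14) was matched by symbol for 71 of the 91 members, and the 250 bases before the start were searched on both strands for 4 short motifs. The NRF1 core GCGCATGC was present in 12 of 71 promoters (16.9%), against 2.81% of all 27305 promoters in the table and 3.7% of those of protein-coding genes. The ETS motif CCGGAAGT was present in 10 (14.1%), against 3.64% and 5.09%. The YY1 motif AAGATGGCG was present in 1 (1.41%), against 0.641% and 0.751%, and the Sp1 motif GGGCGG in 40 (56.3%), against 42.3% and 56.0%. At least 1 of the NRF1, ETS and YY1 motifs was found in 20 of 71 (28.2%), against 6.75% and 9.05%. By complex, the NRF1 core was found in 4 of 33 promoters of complex I, 2 of 3 of complex II, 0 of 7 of complex III, 2 of 14 of complex IV and 4 of 14 of complex V. A match describes the letters and is not a binding site that was measured here.

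Windows of 30 bases around the NRF1 and ETS matches are shown for the 4 members that hold one and differed between the lines (below), and for SDHD, which like COX5B holds both motifs. They are written 5′ to 3′ on the strand of the gene, with the match in capitals. The capitals in ATP5F1C and in the first window of SDHD are 2 overlapping NRF1 matches, 1 on each strand. The windows lie at chr10:7788144-7788173 (+) for ATP5F1C, chr22:42090920-42090949 (-) for NDUFA6, chr17:75047053-75047082 (-) for ATP5PD, chr11:63974590-63974619 (+) for COX8A, and chr11:112086752-112086781 (+) and chr11:112086784-112086813 (+) for SDHD. In GENCODE 29 the windows of ATP5F1C, NDUFA6 and SDHD lie within annotated exons, that of COX8A overlaps an exon by 13 bases, and that of ATP5PD overlaps none.
ATP5F1C, NRF1: ggggagcttcgGCGCATGCGCgctgaggcc
NDUFA6, NRF1: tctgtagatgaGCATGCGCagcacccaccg
ATP5PD, ETS: cccgggaagatACTTCCGGaaccagccctc
COX8A, ETS: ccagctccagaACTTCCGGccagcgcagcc
SDHD, NRF1: cagctgtgtttGCGCATGCGCgacgggtgt
SDHD, ETS: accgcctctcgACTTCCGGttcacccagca
ATP5PD, COX8A and SDHD carry the ETS match on the opposite strand, at -102 to -95, -19 to -12 and -78 to -71 from the RefSeq start. The NRF1 match of NDUFA6 is also on the opposite strand, at -166 to -159.

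Members together held 0.627% to 0.818% of the counts of a library. The share was 0.739% ± 0.0810 (SD, n = 3) in WT cells left untreated and 0.762% ± 0.0363 in those given 5-Ad-IAA. It was 0.720% ± 0.0211 in NS1 cells left untreated and 0.693% ± 0.0587 in those given 5-Ad-IAA, and the ranges of the groups overlapped. Per kilobase of exon the median member had 27.5 CPM, against 4.51 for all genes tested. The median coefficient of variation within groups was 11.8% for members and 15.0% for all genes tested.

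Within a complex, levels per kilobase differed widely although the proteins are built into one assembly. In complex I, NDUFS5, an accessory subunit, had 254 CPM per kilobase and NDUFA5, another accessory subunit, 2.91. In complex II, SDHB, the iron-sulfur subunit, had 31.1, SDHD, a membrane anchor, 27.1, SDHA, the flavoprotein, 16.6, and SDHC, the other anchor, 6.57. In complex III the highest was UQCRH, the hinge protein (101), and the lowest UQCRB (11.8). In complex IV the highest was COX8A (275) and the lowest COX6C (14.0). In complex V the catalytic beta subunit ATP5F1B was highest (270) and the small subunit ATP5MJ lowest (12.4) among the members tested. These lengths are the union of all annotated exons, which lowers the value of genes with long annotated transcripts such as SDHC.

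**Figure D1:**
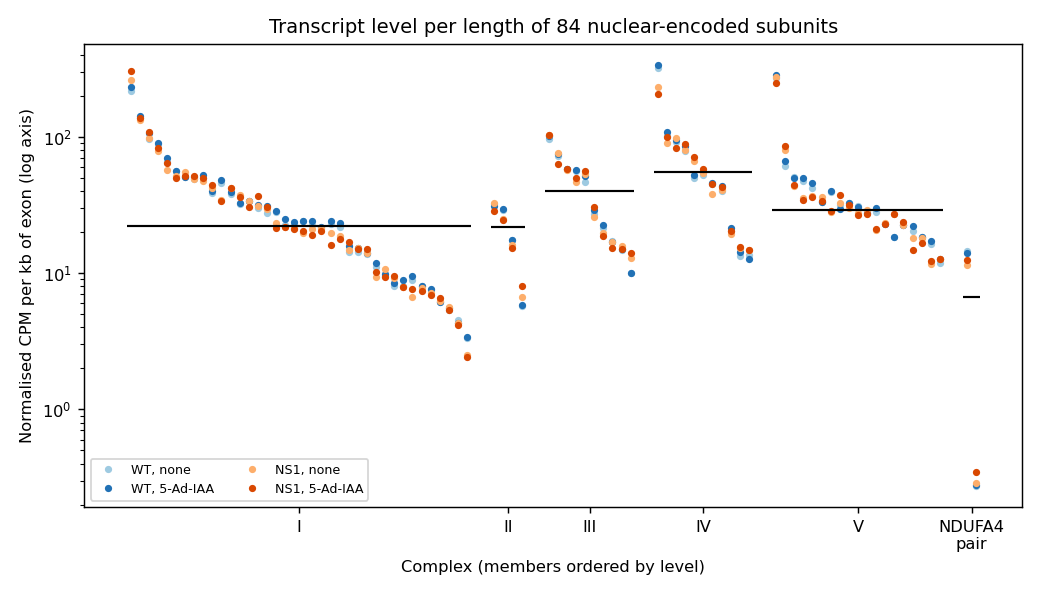
Normalised CPM per kilobase of exon (log axis) for the 84 members tested, ordered by level within each complex, with 1 point per group mean and a black line at the median of the complex. Members of one complex spread widely, from 2.91 to 254 CPM per kilobase in complex I, while the 4 groups of a member lie close together.

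Paralogues showed which isoforms the line uses. COX4I2, COX6A2, COX7B2 and COX8C, isoforms known from lung, muscle or testis, had no count in any of the 12 libraries, where a count of 0 allows up to 3 counts, or 0.148 CPM in the deepest and 0.283 CPM in the shallowest library. COX7A1, the muscle and heart isoform, had at most 2 counts in a library, COX6B2 at most 4, and ATP5MGL at most 3; these 7 members were not tested. Such limits cover counting error only. Of the COX7A reads per length, COX7A2 took 74.9% ± 2.17 (SD, n = 3) in untreated WT cells and 72.7% ± 2.57 in untreated NS1 cells, and nearly all of the rest belonged to COX7A2L, a factor for assembling supercomplexes. NDUFA4 took 98.1% ± 0.0697 of its pair in untreated WT cells and 97.3% ± 2.45 in untreated NS1 cells, and NDUFA4L2, a gene known to respond to hypoxia, had a mean of 0.833 CPM. UQCRH took 86.8% of the reads per length of the pair it forms with its near-copy UQCRHL in untreated WT and in untreated NS1 cells, and these values depend on how reads of the copies were assigned.

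The c subunit of the ATP synthase ring is encoded by ATP5MC1, ATP5MC2 and ATP5MC3, whose mature proteins are the same. Per length, ATP5MC1 took 33.0% ± 1.70 (SD, n = 3) of the 3 genes in WT cells without and 34.8% ± 1.01 with inducer, and 30.5% ± 1.16 in NS1 cells without and 27.2% ± 2.39 with inducer. ATP5MC2 took 37.1% ± 1.14, 36.0% ± 0.259, 38.9% ± 5.08 and 42.1% ± 6.42 in the same order, and ATP5MC3 29.9% ± 1.47, 29.2% ± 0.755, 30.6% ± 4.06 and 30.7% ± 4.09. ATP5MC1 had its lowest mean share in treated NS1 cells, and ATP5MC2 its widest spread. These shares were not tested.

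Nearly all members lay to one side of their group mean in some libraries. Untreated WT replicate 2 had 83 of 84 members below their group mean, and untreated WT replicate 3 had 82 of 84 above it. Treated NS1 replicate 2 had 78 of 84 below. As the mean log2 CPM of the members minus their mean over the 12 libraries, untreated WT cells had -0.05, -0.17 and 0.22, treated WT cells 0.08, 0.08 and 0.01, untreated NS1 cells -0.03, -0.07 and 0.01, and treated NS1 cells 0.03, -0.17 and 0.07. The SD between libraries of a group was 0.12 log2 when pooled over the groups, and the group means lay between -0.03 and 0.06. What sets these library shifts was not tested.

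**Figure D2:**
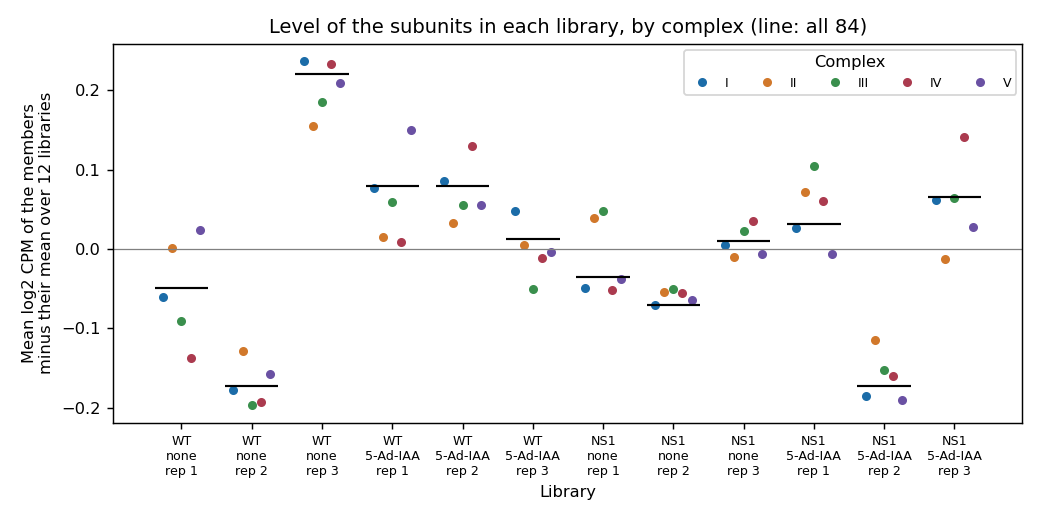
Mean log2 CPM of the members of complexes I to V in each of the 12 libraries, minus the mean over all libraries, with a black line for all 84 members. All 5 complexes lie low in untreated WT replicate 2 and treated NS1 replicate 2 (-0.17 each for all members) and high in untreated WT replicate 3 (0.22).

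Treated and untreated NS1 libraries were compared for the response of that line to 5-Ad-IAA. In the main fit, which did not pair the libraries, no member was called at an adjusted p under 0.05, where 6.15% of all genes tested were called. The test was the edgeR quasi-likelihood test with Benjamini-Hochberg adjustment over all genes tested. At an unadjusted p under 0.05 there were 2 members. Log2 fold changes ran from -0.29 for ATP5MC1 to 0.31 for NDUFA4L2, with a median of 0.00, 44 members above 0 and 40 below. Scaling by library totals gave a median of -0.05, with 33 above and 51 below, and leaving out treated NS1 replicate 2 gave 0.10. All 84 lay within 0.5 log2 in size, against 83.6% of all genes tested, and the median size was 0.08 against 0.20. Members were also more abundant (median 75.6 against 16.1 CPM) and had a smaller median SE (0.13 against 0.17). How far this accounts for the smaller sizes was not tested. CPM ranges of treated and untreated libraries did not overlap for 5 members (5.95%), against 27.2% of all genes tested. SDHC, NDUFA10 and UQCR11 lay higher with inducer, and ATP5MC1 and NDUFAB1 lower. By complex, the medians were 0.00 in complex I, -0.05 in complex II, 0.02 in complex III, 0.09 in complex IV and -0.01 in complex V.

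SDHC had the lowest adjusted p of the members in this comparison. SDHC (ENSG00000143252.14, chromosome 1, 161314257 to 161375340, hg38) is a membrane anchor of succinate dehydrogenase. It had 94.4, 93.0 and 95.9 CPM in untreated and 112, 110 and 120 CPM in treated NS1 cells, and the ranges did not overlap. In WT cells it had 81.3, 81.4 and 82.9 CPM without and 81.1, 85.4 and 80.0 with inducer, which overlapped. The log2 fold change in NS1 cells was 0.27 (SE 0.08, adjusted p 0.071 by edgeR). The other subunits of the complex did not move with it, at -0.07 for SDHA, -0.21 for SDHB and -0.02 for SDHD, none called. In WT cells SDHC was at 0.00 (SE 0.08), and the difference between the lines in this response was 0.26 (SE 0.12, adjusted p 0.374 by edgeR).

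Libraries of the same replicate number were paired in each line, and the fits with that pairing made calls that the fit without it did not. With 1 block per replicate number, SDHC was called (adjusted p 0.0287 by edgeR), against 13.6% of all genes tested. DESeq2, run without pairs, also called SDHC and no other member, against 1480 of 17775 genes tested. With a block per number within each line, 5 members were called, against 25.9% of all genes tested: SDHC higher (log2 0.27, adjusted p 0.00810) and NDUFAB1, ATP5MC1, CYC1 and COX5A lower. NDUFAB1, the mitochondrial acyl carrier protein that is also a subunit of complex I, had 28.6, 32.3 and 34.0 CPM in untreated and 25.5, 23.9 and 28.5 CPM in treated NS1 cells (log2 -0.28, adjusted p 0.0260 in that fit and 0.180 without a block). ATP5MC1 had 46.1, 47.2 and 49.7 CPM in untreated and 42.0, 36.1 and 38.4 CPM in treated NS1 cells (adjusted p 0.0241 and 0.259). The ranges of both genes did not overlap. CYC1, the cytochrome c1 of complex III, and COX5A, a subunit of cytochrome c oxidase, had adjusted p of 0.0351 and 0.0466 in that fit, and their ranges overlapped. These genes were picked by the paired fit; over all 84 members, 19 were lower and 13 higher in each of the 3 same-numbered pairs of NS1 libraries.

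In WT cells the same treatment gave no call among members and none among all genes tested (0.0%), in the fit without a block and with either block, and DESeq2 likewise called 0 of 17775 genes. At an unadjusted p under 0.05 there were 0 members and 94 genes. CPM ranges did not overlap for 0 members, against 3.41% of all genes tested. The member median was 0.05 log2 with 73 of 84 above 0, but this tilt rested on single replicates. In pairs of the same number, 80 members were higher with inducer in replicate 1, 83 in replicate 2 and 2 in replicate 3. The median was -0.05 without replicate 2 and 0.20 without replicate 3. In NS1 cells the same counts were 58, 17 and 56 of 84.

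The interaction of genotype and inducer, which asks whether the response differed between the lines, called no member (0.0225% of all genes tested were called) and had 1 member, SDHC, at an unadjusted p under 0.05. With a block per number within each line, ATP5MC1 was called at -0.42 log2 (adjusted p 0.0328 by edgeR), against 14.0% of all genes tested. Without a block its adjusted p was 0.421, and with 1 block per number over both lines no member was called, against 3.57%. The member median of the interaction was -0.04, and it ran from 0.10 without replicate 2 to -0.19 without replicate 3 in all groups. Among single libraries it turned above 0 without untreated WT replicate 2 (0.05) or treated NS1 replicate 2 (0.03), and was -0.15 without untreated WT replicate 3.

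**Figure D3:**
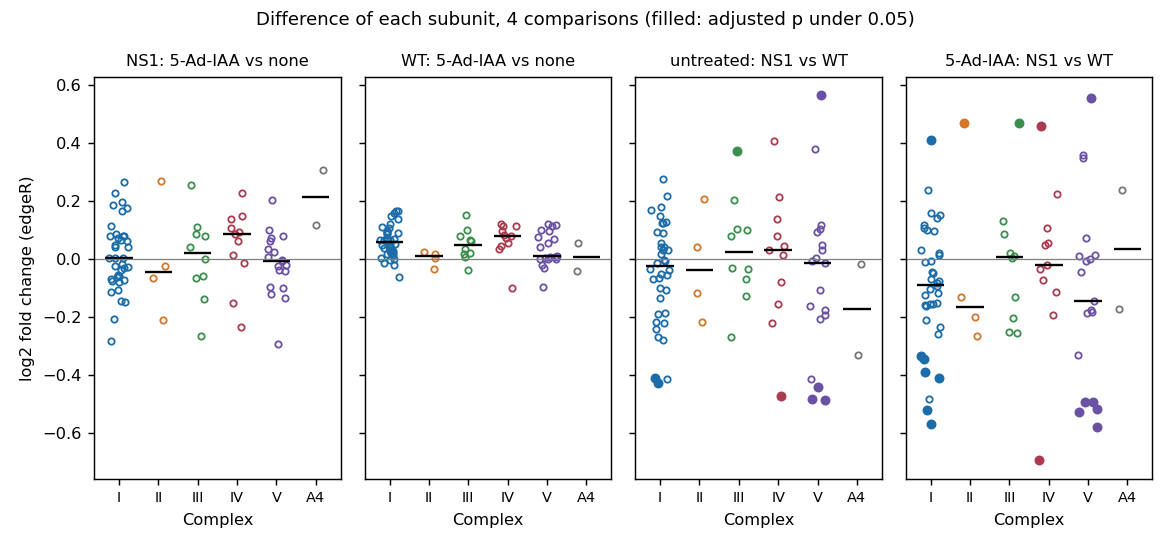
Log2 fold change of each of the 84 members by complex (A4, the NDUFA4 pair) in 4 comparisons, with filled points for an adjusted p under 0.05 and black lines at the medians. All values are from the fit without a block. The inducer comparisons hold no filled point and stay within 0.31 log2, while 8 and 17 members are filled between the lines, on both sides of 0.

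Larger differences stood between the lines. Without treatment 8 of 84 members (9.52%) were called between NS1 and WT cells, against 12.5% of all genes tested: 2 were higher in NS1 cells (5.45% of all genes tested were called higher) and 6 lower (7.05%). With 5-Ad-IAA in both lines 17 members (20.2%) were called, against 28.2%: 5 higher (13.6%) and 12 lower (14.5%). Member medians were -0.01 and -0.07 log2, and -0.03 and -0.15 when scaled by library totals. CPM ranges of the lines did not overlap for 17 members without (20.2%) and 33 with inducer (39.3%), against 31.0% and 43.4% of all genes tested. All 8 members called without inducer were also called with it, in the same direction, and the other 9 were called with inducer alone, although in the fit without a block no interaction was called for them. The line comparisons share no library, but they are not independent. All 12 libraries entered each fit, and deviations of same-numbered libraries of a line correlated (0.26 to 0.75).

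Of the ATP synthase members tested, 4 of 19 were called without inducer (12.5% of all genes tested) and 6 of 19 with it (28.2%), and of complex I 2 of 38 and 7 of 38. Both ATP synthase counts hold ATP5MF and its read-through gene ATP5MF-PTCD1, which may share reads. ATP5F1A (ENSG00000152234.16, chromosome 18), the alpha subunit of the catalytic head, was the highest of the members in both comparisons. It had 217, 179 and 210 CPM in untreated WT cells against 316, 285 and 295 in untreated NS1 cells, and 224, 192 and 189 against 327, 274 and 290 with inducer. No NS1 library overlapped a WT library. The difference was 0.56 log2 without inducer (SE 0.11, adjusted p 0.00679 by edgeR) and 0.56 with it (SE 0.11, adjusted p 0.00287), a 1.48-fold and a 1.47-fold difference. ATP5F1A stayed called when any 1 library was left out, in 6 fits for each comparison. Its partner in the head, ATP5F1B, had 557 to 693 CPM in untreated WT and 581 to 673 in untreated NS1 cells, and the ranges overlapped. With inducer ATP5F1B had 615 to 737 CPM in WT and 566 to 599 in NS1 cells. It was lower in NS1 cells there without overlap, the other way from ATP5F1A, but was not called.

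Other ATP synthase genes were lower in NS1 cells. ATP5PD (chromosome 17), a subunit of the peripheral stalk, had 124, 108 and 148 CPM in untreated WT and 88.9, 85.9 and 95.9 in untreated NS1 cells, and 134, 127 and 130 against 95.5, 83.0 and 98.5 with inducer. It fell by 0.49 log2 in both comparisons (SE 0.12, adjusted p 0.0183 without and 0.00759 with inducer, by edgeR). ATP5MF (ENSG00000241468.7, chromosome 7, 99448475 to 99466331), a membrane subunit, had 59.8 to 70.6 CPM in untreated WT and 46.8 to 47.8 in untreated NS1 cells, and fell by 0.44 and 0.52 log2 (adjusted p 0.0173 and 0.00306). The read-through gene ATP5MF-PTCD1 was called alongside it at -0.48 and -0.49. It spans ATP5MF, and its level was 65.0% to 76.4% of that of ATP5MF in the 12 libraries, so these are not separate observations where reads of shared exons were counted for both.

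ATP5MC1 and ATP5F1C reached the threshold only with inducer. ATP5MC1 (chromosome 17) had 68.1, 53.3 and 52.5 CPM in treated WT cells against 42.0, 36.1 and 38.4 in treated NS1 cells, a difference of -0.58 log2 (SE 0.14, adjusted p 0.00807 by edgeR). Without inducer the values were 61.4, 42.9 and 55.7 against 46.1, 47.2 and 49.7, which overlapped (log2 -0.16, adjusted p 0.487). ATP5F1C (chromosome 10), the gamma subunit that turns inside the head, had 136, 109 and 102 CPM against 95.5, 66.8 and 77.8 with inducer (log2 -0.53, SE 0.16, adjusted p 0.0258), and 120, 89.9 and 119 against 91.7, 74.5 and 81.2 without (-0.41, adjusted p 0.113). ATP5IF1, the inhibitor of the ATP synthase, was at -0.20 and -0.18 and was not called.

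In complex IV, COX8A (chromosome 11), the ubiquitous isoform of a small membrane subunit, had the lowest value of the members with inducer. Untreated WT cells had 151, 140 and 198 CPM against 121, 115 and 116 in NS1 cells, and treated cells had 161, 180 and 173 against 117, 93.0 and 107. It fell by 0.47 log2 without (SE 0.13, adjusted p 0.0316 by edgeR) and by 0.69 with inducer (SE 0.13, adjusted p 0.00174), a loss of 27.9% and 38.2%. COX7C (chromosome 5), another small subunit, went the other way, with 110, 111 and 90.8 CPM in treated WT against 165, 123 and 142 in treated NS1 cells (log2 0.46, SE 0.15, adjusted p 0.0317). Without inducer COX7C was at 0.41 (adjusted p 0.0869). COX4I1, a large nuclear subunit of the complex, had 220 to 309 CPM in untreated WT and 215 to 292 in untreated NS1 cells, and the ranges overlapped.

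In complex III, UQCRB (ENSG00000156467.9, chromosome 8, 96225920 to 96235634), which binds ubiquinone, was the called member. It had 90.8, 91.4 and 109 CPM in untreated WT against 130, 121 and 126 in NS1 cells, and 95.6, 106 and 93.3 against 145, 117 and 145 with inducer. It was higher by 0.37 log2 (SE 0.11, adjusted p 0.0463 by edgeR) and by 0.47 (SE 0.11, adjusted p 0.00775). In complex II, SDHC was called with inducer at 0.47 log2 (SE 0.08, adjusted p 0.00108) and was at 0.21 without (adjusted p 0.124), although its ranges did not overlap in either comparison. SDHA, SDHB and SDHD were not called, at -0.12, 0.04 and -0.22 without and -0.20, -0.13 and -0.26 with inducer. With inducer the ranges of SDHA and SDHD also did not overlap, both lower in NS1 cells, and those of SDHB overlapped. Such separation was found for 43.4% of all genes tested.

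In complex I, NDUFA6 and NDUFB2 were lower in NS1 cells in both comparisons. NDUFA6 (ENSG00000184983.10, chromosome 22, 42085525 to 42090955), an accessory subunit, had 62.5, 58.4 and 75.3 CPM in untreated WT against 47.7, 47.6 and 50.3 in NS1 cells, and 67.8, 67.8 and 69.4 against 47.5, 44.4 and 51.1 with inducer. It fell by 0.43 log2 (SE 0.11, adjusted p 0.0189 by edgeR) and by 0.52 (SE 0.11, adjusted p 0.00281). NDUFB2 (chromosome 7) was at -0.41 and -0.34 (adjusted p 0.0389 and 0.0489). With inducer alone NDUFS5 was higher (0.41, adjusted p 0.0270), and NDUFAB1 (-0.57, adjusted p 0.00294), the NADH-binding subunit NDUFV1 (-0.41, adjusted p 0.0487), the core subunit NDUFS3 (-0.39, adjusted p 0.0300) and NDUFB3 (-0.34, adjusted p 0.0489) were lower. NDUFAB1 had 36.4, 39.2 and 40.3 CPM in treated WT against 25.5, 23.9 and 28.5 in treated NS1 cells, with no overlap.

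**Figure D4:**
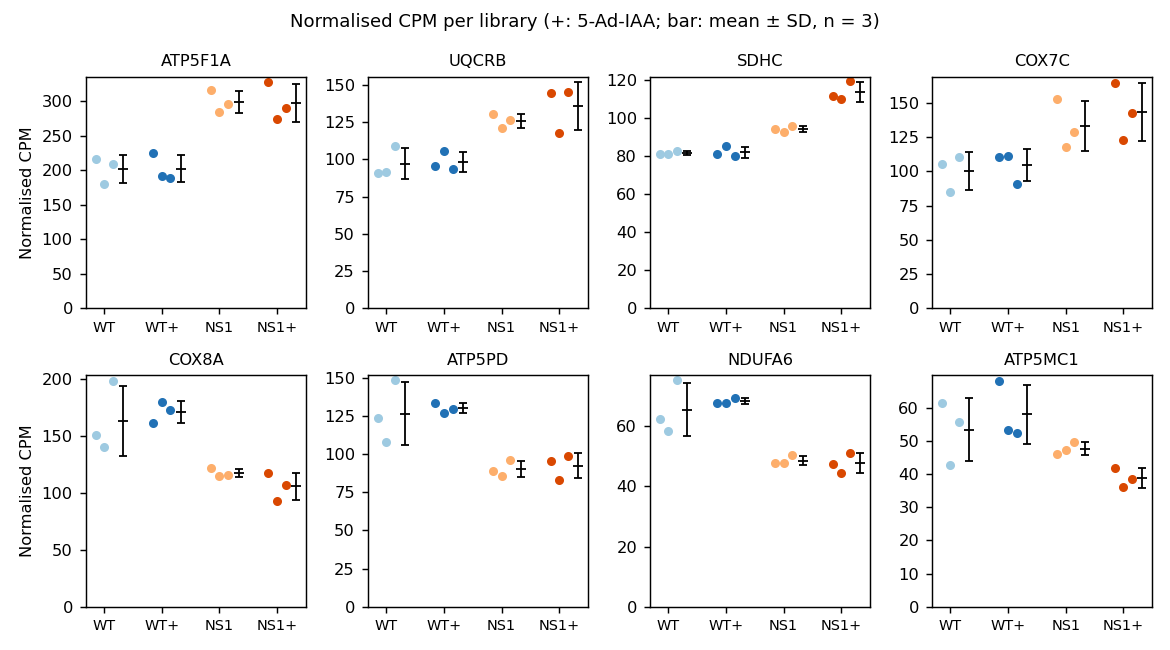
Normalised CPM in each library for 8 members called between the lines (WT, NS1; + marks 5-Ad-IAA), with the mean ± SD of 3 libraries beside each group. ATP5F1A, UQCRB, SDHC and COX7C lie higher and COX8A, ATP5PD, NDUFA6 and ATP5MC1 lower in treated NS1 than in treated WT cells, with no overlap.

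The count of calls between the lines rested on few libraries. Without inducer the 8 calls became 2 without NS1 replicate 1, 1 without NS1 replicate 2, 4 without NS1 replicate 3 and 5 without WT replicate 3, and 0 when replicate 2 or replicate 3 was left out of all groups. The WT replicates 2 and 3 of this comparison are the libraries with 83 of 84 members below and 82 of 84 above their group mean. With inducer the 17 calls became 11 without WT replicate 2 or WT replicate 3, 10 without NS1 replicate 3, 3 without replicate 2 in all groups and 7 without replicate 3. ATP5F1A, SDHC, UQCRB, COX8A, ATP5MC1, NDUFAB1, NDUFA6, ATP5MF, ATP5PD and ATP5MF-PTCD1 stayed called with inducer whichever library was left out.

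Differences between the lines followed the chromosome on which a member lies, a pattern looked for after the values had been seen. For each member, the median log2 fold change of the other tested genes of its chromosome, members left out, was set beside its own. Without inducer 63 of 84 members and 8 of 8 called members had the sign of their chromosome's median. With inducer these counts were 54 of 84 and 16 of 17. Among members not called they were 55 of 76 without and 38 of 67 with inducer. A median has the sign of most genes it is taken over, so such counts lean this way for any genes. The same share over all genes tested was not taken. Across the 84 genes, which share libraries and chromosomes and are not independent, Pearson's r was 0.71 and Spearman's rho 0.67 without inducer, and 0.60 and 0.55 with it. Over the same members r was 0.05 for the inducer in NS1 cells and 0.18 in WT cells. Subtracting the chromosome's median took the SD of the members' log2 fold changes from 0.21 to 0.15 without inducer and from 0.26 to 0.21 with it.

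Chromosome 7 shows the pattern most plainly. Its 5 members ATP5MF, ATP5MF-PTCD1, NDUFA4, NDUFA5 and NDUFB2 were all below 0 without inducer, with a median of -0.41 log2, and 85.2% of the 849 other tested genes of the chromosome were also below 0, with a median of -0.41. All 8 members on chromosome 11 were below 0 (median -0.22, against -0.20 for 966 other genes), as were both on chromosome 17 (-0.33 against -0.27) and both on chromosome 22 (-0.35 against -0.19). The members of chromosomes 7 and 11 include the read-through genes ATP5MF-PTCD1 and NDUFC2-KCTD14. These may share reads with ATP5MF and NDUFC2, and ATP5MF-PTCD1 is also among the called members counted above. Chromosome 18 had a median of 0.33 over its 261 other genes, and of its 2 members ATP5F1A lay above 0 and NDUFV2 below it, at -0.10 without and -0.15 with inducer. After subtraction NDUFB2 was at 0.00 without and 0.07 with inducer. ATP5F1C went against its chromosome, at -0.41 and -0.53 where the other genes of chromosome 10 had medians of 0.26 and 0.22. What sets the chromosome medians was not tested.

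Genes that serve the same complexes were read from lists. All 13 subunits encoded in mitochondrial DNA were below 0 in NS1 against WT cells, both without and with inducer. Without inducer 6 of 13 were called lower (7.05% of all genes tested) and with it 5 (14.5%). List medians were -0.86 and -0.64 log2, and none was called for the inducer in either line. The share of counts of these subunits was 1.70% ± 0.634 (SD, n = 3) in untreated WT cells and 0.828% ± 0.238 in untreated NS1 cells. The ranges overlapped, at 1.01% to 2.26% in untreated WT and 0.656% to 1.10% in untreated NS1 cells. Levels of mitochondrial transcripts depend on how poly(A) selection catches them.

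Among 50 assembly factors, 1 was called higher and 1 lower without inducer (4% in all, against 12.5% of all genes tested). PET117, which serves complex IV assembly, was higher (0.47, adjusted p 0.0186 by edgeR), and FOXRED1, which serves complex I assembly, was lower (-0.43, adjusted p 0.0419). With inducer 10 of 50 were lower in NS1 cells and 0 higher (20% in all, against 28.2%), with a list median of -0.12. The lowest were FOXRED1 (-0.92), SDHAF3 (-0.91), COA1 (-0.78) and CMC2 (-0.65), and SDHAF3 and COA1 lie on chromosome 7. For the inducer in NS1 cells none of the 50 was called without a block, and the median was -0.10. With the replicate block 3 were called (13.6% of all genes tested), NDUFAF4, CMC2 and COA7, all lower, and with the block within each line 7 (25.9%), also all lower. DESeq2 called 1 of the 50, CMC2, against 1480 of 17775 genes tested.

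Of 13 citric acid cycle enzymes, which feed the chain with NADH and succinate, 3 were called, all lower, in untreated NS1 cells (23.1%, against 12.5% of all genes tested): OGDH (-0.62), MDH2 (-0.54) and DLD (-0.54), all on chromosome 7. With inducer these were joined by IDH3A (-0.48), which made 30.8% against 28.2%. Without a block no enzyme was called for the inducer in either line. In NS1 cells the replicate block called IDH3A and SUCLA2 lower (2 of 13, against 13.6% of all genes tested). The block within each line also called CS (3 of 13, against 25.9%), and DESeq2 called IDH3A (1 of 13, against 1480 of 17775 genes). The medians of the list were -0.02 and -0.20 between the lines.

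Among 13 regulators of mitochondrial biogenesis, PPARGC1A was too low to be tested, with at most 7 counts in a library. TFAM, which packages and transcribes mitochondrial DNA, was the only one of the 12 tested that was called for the inducer in NS1 cells without a block. The replicate block also called NRF1 lower (13.6% of all genes tested were called). The block within each line called 7 of 12, all lower, against 25.9% of all genes tested. TFAM had 111, 89.1 and 88.3 CPM in untreated and 76.1, 69.2 and 67.3 CPM in treated NS1 cells (log2 -0.44, SE 0.11, adjusted p 0.0361 by edgeR). With 1 library left out the call held in 1 of 6 fits, with adjusted p from 0.0368 to 0.145. All 12 were below 0, with a median of -0.25, and in WT cells TFAM was at -0.02 (adjusted p 1). Between untreated lines TFAM (0.64), MYC (0.40) and PPARGC1B (1.01) were higher in NS1 cells (25% of the list, against 12.5% of all genes tested). With inducer (33.3%, against 28.2%) NRF1 (-0.61), TFB1M (-0.55) and ESRRA (-0.45) were lower and YY1 (0.34) higher, and NRF1 lies on chromosome 7.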

How the data were processed

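The authors deposited 1 table of raw read counts per gene for 12 libraries. Per the submitters' processing notes, reads were aligned with STAR 2.7.3a to hg38 and counted with featureCounts 1.6.4; the annotation and use of strand are not given in the sources used here, so reads of overlapping, antisense or near-identical genes cannot be told apart. Symbols matched 60306 of 60603 identifiers. Gene types, exon lengths and chromosomes came from GENCODE 29, and a start and end are printed only where the gene version is the same (27 of 91 members).

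Counts were fitted with edgeR 4.0.16 in R 4.3.3 (filterByExpr, TMM, glmQLFit with a mean per group over all 12 libraries), in 5 two-sided comparisons. Calls rest on p-values adjusted by Benjamini and Hochberg over 17775 genes, with a threshold of 0.05. The standard error is the size of the log2 fold change divided by the square root of F. Alternatives used DESeq2 1.42.0, other scalings and filters, blocks and left-out libraries. On simulated data (17604 genes with 198 changed, made for the inducer in NS1 cells) 8.08% of changes of 0.5 log2 and 51.5% of changes of 1 log2 were recovered. The changed genes were drawn at random from all genes. In the data the median standard error was 0.17 for all genes tested and 0.13 for members. These rates are therefore not rates for the members, although small changes can be missed.

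The main fit had no block and did not use pairs, also in the inducer comparisons. Same-numbered libraries entered as pairs only in the fits with a block and in the counts by pair. Their deviations from the group means correlated within a line (0.71, 0.39 and 0.38 in NS1 cells, 0.75, 0.38 and 0.26 in WT cells). Between the lines the correlations were lower, at 0.01 to 0.23 over all pairs of groups. Members and lists were chosen with earlier results of these data known. Named are called members (up to 8 a direction), paralogue sets, the SDH genes, ATP5IF1, the highest and lowest member per length of each complex, and up to 4 called genes a direction of each list; other members were named after their values were seen.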

Additional observations from a re-analysis of the deposited data

How the results depend on the processing

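The count of members called was compared with 8 without inducer, 17 with inducer, and 0 in the other comparisons. For the inducer in NS1 cells it was 1 (SDHC) with DESeq2, which called 1480 of 17775 genes. It was 1 with the replicate block (13.6% of all genes tested) and 5 with the replicate block within each line (25.9%). For the interaction the count was 1 with the replicate block within each line (14.0%). Between untreated lines it was 3 when only the groups compared entered the fit, 0 without replicate 2 and 0 without replicate 3, and 1 to 7 when single libraries were left out. Between treated lines it was 3 without replicate 2, 7 without replicate 3, and 10 to 13 with single libraries left out. With the replicate block the line comparisons gave 11 and 22 calls (22.0% and 37.5% of all genes tested); the block within each line was not run there, because its blocks lie within the lines. RLE size factors, library totals and both filters kept every one of these counts within 1.5 times. After subtraction of the chromosome's median, an alternative added after seeing the data, NDUFB2 turned to 0.0043 without and 0.070 with inducer. Coding length was not used, since an exon length was at hand for all members. At 3 libraries a group, the standard error of a member's log2 fold change was 0.13 at the median, which limits what can be called.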

Other observations

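Genes annotated as pseudogenes with member-type symbols numbered 174, of which 64 had a count, and their counts came to 1.81% of those of the members in untreated WT, 1.78% in treated WT, 1.77% in untreated NS1 and 1.85% in treated NS1 cells (means, n = 3). COX6A1P2 (mean 846 counts per library), UQCRFS1P1 (247), NDUFV2P1 (223) and COX7CP1 (183) led them.

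NDUFC2-KCTD14, a read-through gene that spans NDUFC2, had 81.7% to 88.0% of the CPM of NDUFC2 in each of the 12 libraries, a narrow range.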
